A study of Mus musculus with 12 samples.

Results

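Most of the genes described here build, cap, cut, bundle or walk along actin filaments in the mouse testis. Some actin-related proteins among them belong instead to dynactin, to a chromatin remodeller or to the sperm head. All the genes were chosen by gene symbol, with earlier results of these data known. The symbols name actins, actin-related proteins, alpha-actinins, filamins, subunits of the Arp2/3 complex and of capping protein, cofilin, profilins, tropomyosins and tropomodulins. They also name WAVE proteins, myosin heavy and light chains and unconventional myosins, with Dbnl, Cttn, Gsn and Vil1. Actr2 and Capza3 were left out by the rule of choice. This gave 67 of the 9930 genes that the array's annotation names with a single symbol, measured by 93 probes. Of the 67, 64 had a value on at least 3 of the 4 arrays of every comparison and were tested. Actn2, Actn3 and Myh3 had fewer values and were not tested.

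Total RNA from whole testis was hybridised to 12 two-colour arrays of mouse probes, with 1 genotype in each dye. The genotypes were wildtype (wt), Wobbler (wr), and Wobbler modifier (wr mod), all of them male and on a Castaneus background, and each channel held RNA pooled from 3 animals. The Wobbler modifier mice are named wr/mod in the study design, which does not describe the modifier, and no ages are given. Each of the 3 pairs of genotypes was compared on 4 arrays, replicates 1 to 4, with the dyes exchanged on replicates 3 and 4. Wobbler is a recessive mouse mutation in Vps54, a subunit of a tethering complex at the Golgi apparatus, and is known for motor neuron loss and for males that make round-headed sperm without a proper acrosome.

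Actin filaments grow from monomers that profilin delivers, branch where the Arp2/3 complex binds, stop growing where capping protein sits on their fast-growing end and are taken apart by cofilin. In the testis they form the ectoplasmic specialisations by which Sertoli cells hold spermatids, a filament layer between acrosome and nucleus of the spermatid, and the contractile fibres of the muscle-like cells around each tubule. Several actin-like proteins are made only in germ cells and become part of the sperm head.

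Every value is a log2 ratio of the first-named genotype over the second on 1 array, so 1 is a doubling and -1 a halving. The deposited values give no level, so genes cannot be compared in abundance and the presence of testis markers could not be checked. No source states which dye is the numerator. Read as Cy5 over Cy3, with dye-exchanged arrays multiplied by -1, all 12 pairs of arrays of 1 comparison and opposite dyes correlated positively across features (0.03 to 0.19), and so did the 6 pairs with the same dyes (0.04 to 0.29). These correlations would be the same with every sign reversed, so they separate a ratio of dyes from a ratio of channels but do not set the sign. That the first-named genotype is the numerator rests on the array titles and the usual order of the dyes, so which sign means higher is only likely. Each array gave 18325 to 19584 usable spots, and the number of arrays limits the precision. Replicate 2 of Wobbler over wildtype had the widest spread of the 12 arrays, with 13.9% of its values above 2 against at most 2.69% on the others. Nothing in the labels says that the arrays of a comparison used separate pools, so p-values cover only the variation from array to array, technical variation included. In the labelling protocol a pool of control animals is named as reference, whereas the channel labels name the genotypes above, and these were used. Each SE below uses 1 spread per feature, estimated over all 12 arrays of the 3 comparisons, and n = 4 counts only the arrays in the mean. Sets of 3 values below are in the order modifier over wildtype, modifier over Wobbler, Wobbler over wildtype unless stated otherwise.

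Of the 64 genes tested, 1 passed the threshold in modifier over wildtype, 1 in modifier over Wobbler and 0 in Wobbler over wildtype (limma, Benjamini-Hochberg adjusted p under 0.05 over all 14729 features). The gene was Dbnl in both cases, and its ratio was positive. Over all features, 0.733%, 0.414% and 0.306% passed in these comparisons. Features called higher were 0.0339%, 0.115% and 0.122% of those tested. With so few features called, 0 or 1 of 64 genes lies near the background, and neither count is a result about these genes as a group.

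At an unadjusted p under 0.05 there were 5 genes in the first comparison (background 7.33%), 5 in the second (11.5%) and 9 in the third (15.7%). Of these, 1, 3 and 8 had positive ratios, where over all features 311 of 1080, 1036 of 1694 and 1063 of 2310 were positive. Ratios with the same sign on every array that gave a value were found for 11 of the 64 in modifier over wildtype (19.2% of all features). Of these 3 were positive (8.8%) and 8 negative (10.4%). There were 8 such genes in modifier over Wobbler (17.8%), 5 positive (11%) and 3 negative (6.8%), and 8 in Wobbler over wildtype (17.6%), again 5 positive (6.59%) and 3 negative (11%). As shares of the 64 the totals are 17.2%, 12.5% and 12.5%, all below the background.

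The median log2 ratio of the 64 genes was -0.02 in modifier over wildtype, where it was 0.01 over all features. It was 0.04 in modifier over Wobbler, against 0.08, and 0.09 in Wobbler over wildtype, against -0.01. Without replicate 2 of Wobbler over wildtype, a setting added after the data had been seen, the last pair was -0.02 and -0.03. The 95% interval of the fitted ratio lay inside a 2-fold change either way for 49 of the 64 in modifier over wildtype, 47 in modifier over Wobbler and 43 in Wobbler over wildtype. These are 76.6%, 73.4% and 67.2% of the genes, near the 74.2%, 69.8% and 66.1% of all features. The median half-width of these intervals was 0.48 to 0.49 on the log2 scale. The plot of fitted ratios shows both distributions.

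**Figure D1:**
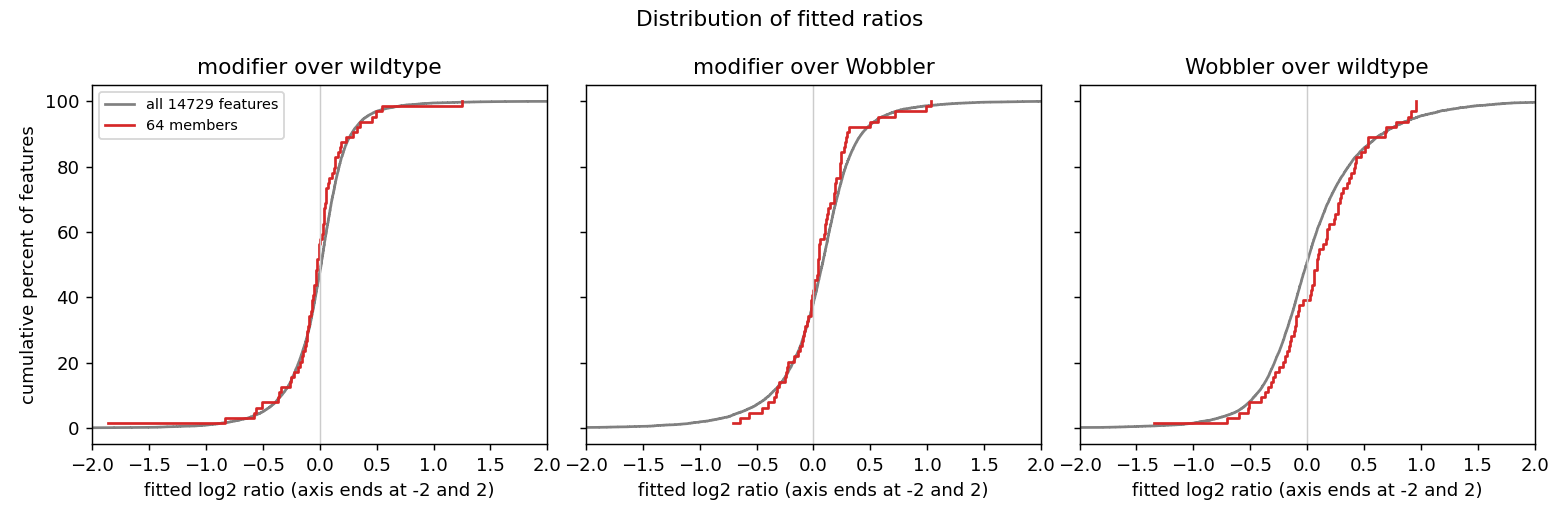
Cumulative share of features (percent, y axis) by fitted log2 ratio (x axis) in the 3 comparisons, for the 64 tested genes (red) and all 14729 features (grey). The curves run close together, with member medians of -0.02, 0.04 and 0.09 beside 0.01, 0.08 and -0.01 for all features.

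**Figure D2:**
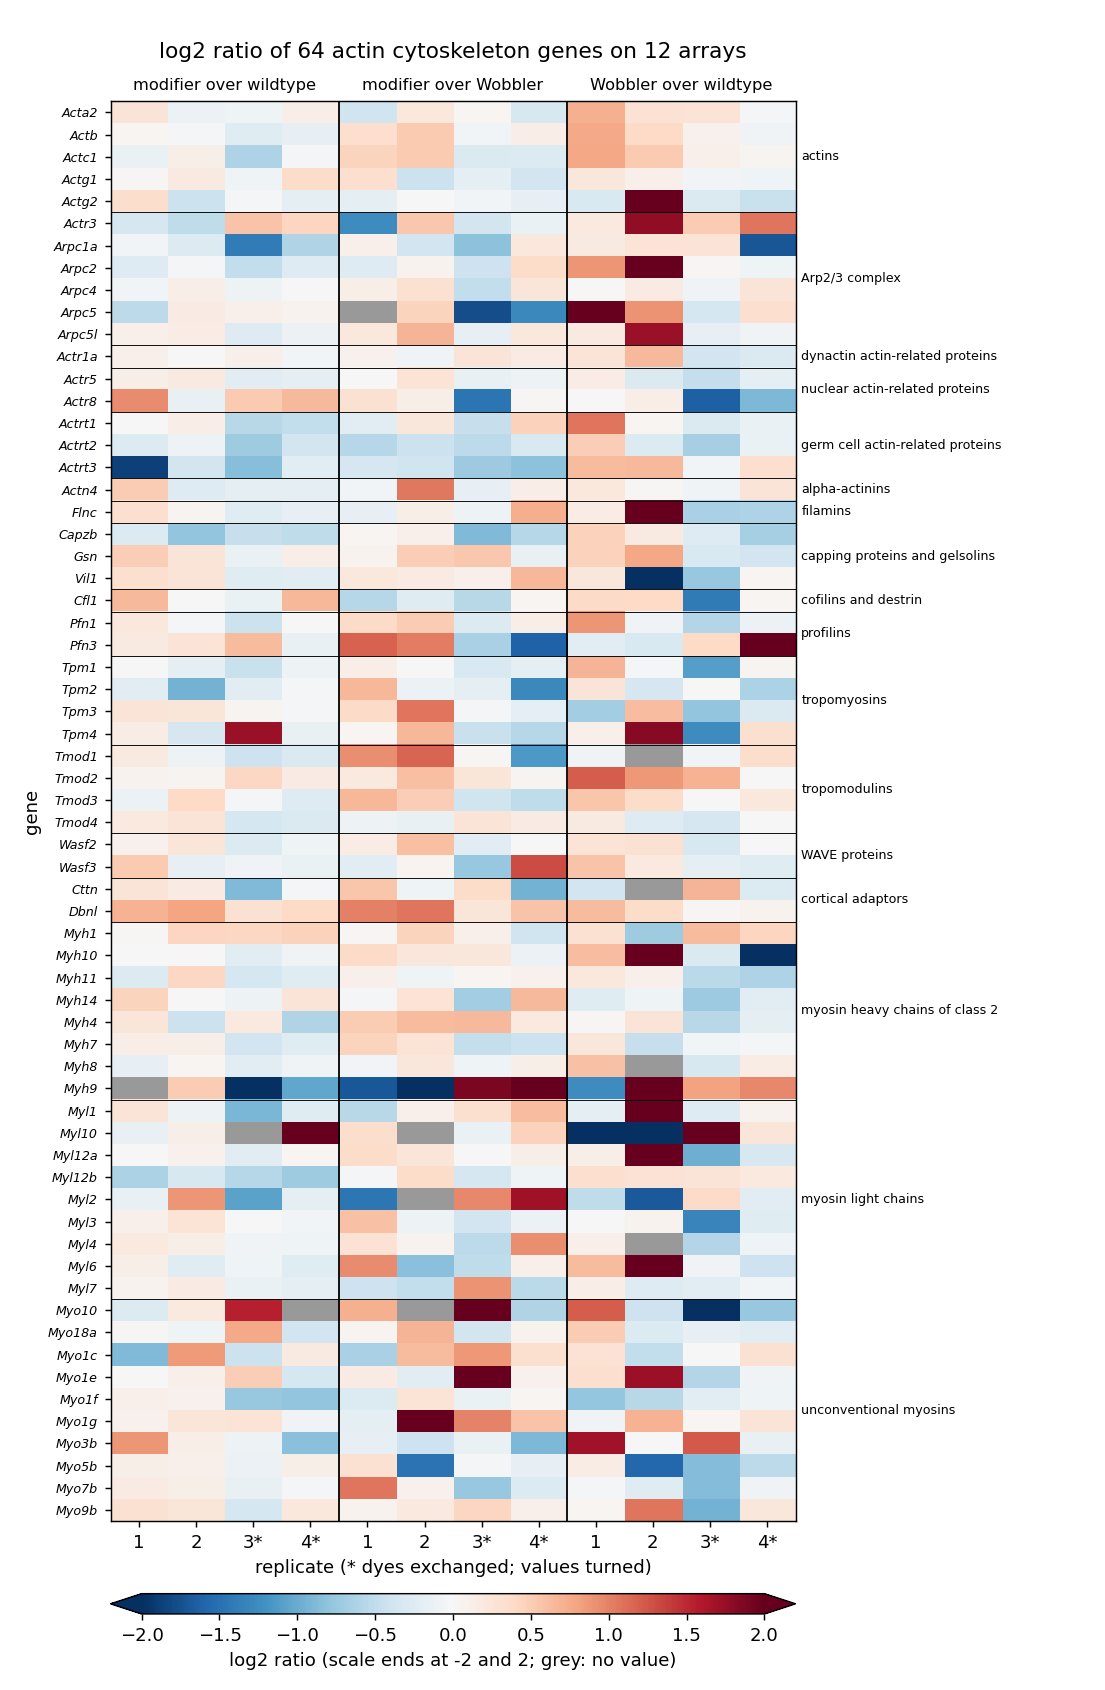
log2 ratio of each of the 64 tested genes (rows, grouped by role) on each of the 12 arrays (columns), with the colour scale ending at -2 and 2 and grey for no value. Dbnl is positive on all 12 arrays, and no role with several genes has 1 sign throughout.

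Dbnl, also called mAbp1, is an adaptor that binds filaments beneath the membrane and links actin to endocytosis and to the Golgi apparatus. In modifier over wildtype its 4 arrays gave 0.70, 0.78, 0.30 and 0.39. The fitted ratio was 0.54 ± 0.10 (SE, n = 4), or 1.46-fold, with an adjusted p of 0.0459. Against Wobbler, the modifier arrays gave 1.001, 1.07, 0.25 and 0.57, with a fitted ratio of 0.72 ± 0.10 (SE, n = 4), or 1.65-fold, and an adjusted p of 0.0190. In Wobbler over wildtype they gave 0.63, 0.36, 0.02 and 0.06, with a fitted ratio of 0.27 ± 0.10 (SE, n = 4) and an adjusted p of 0.261. All 12 values were above 0, and in every comparison both arrays with the first-named genotype in Cy5 were higher than both with exchanged dyes.

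The mean of replicates 1 and 2 of Dbnl was 0.74 in modifier over wildtype and that of the dye-exchanged replicates 3 and 4 was 0.35. These means were 1.03 and 0.41 in modifier over Wobbler, and 0.50 and 0.04 in Wobbler over wildtype. The dye term of the fit for Dbnl was 0.25, above the 0.15 that was the median of all features. It did not pass the threshold itself (limma, unadjusted p = 0.00185, adjusted p = 0.128). Only 0.00679% of all features passed for the dye term, so missing the threshold does not show that Dbnl is free of a dye effect. Both comparisons in which Dbnl was called contain the modifier genotype, so the 2 calls may share RNA and are not separate evidence.

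The calls of Dbnl depended on single arrays and on settings. For modifier over wildtype the adjusted p lay between 0.213 and 0.278 when any 1 of its own 4 arrays was left out. It also missed the threshold, at 0.0510 to 0.0788, without certain arrays of the other comparisons. These were replicate 1 or 2 of modifier over Wobbler and replicate 1, 3 or 4 of Wobbler over wildtype. All arrays enter the estimate of the spread, the filter on missing values and the adjustment, and their parts were not tested separately. The call in modifier over Wobbler was kept without replicate 3 (adjusted p = 0.0306) and lost without replicate 1, 2 or 4 (0.0693 to 0.126), and it was lost without replicate 1 or 2 of modifier over wildtype (0.0506 and 0.0536). Both calls were also lost with no dye term (adjusted p = 0.428 and 0.176) and with each comparison fitted alone (0.277 and 0.702), and the first with no filter on missing values (0.0527). With 1 array left out the fitted ratio stayed between 0.51 and 0.58 in the first comparison and between 0.68 and 0.81 in the second.

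The difference between direct and indirect values was also fitted, since the ratio of Wobbler to wildtype also follows from the 2 comparisons with the modifier. For Dbnl the direct ratio was 0.27 and the indirect one -0.18, a difference of 0.45 ± 0.18 (SE; adjusted p = 0.674). Over all features 0.0272% passed this test and 6.95% had an unadjusted p under 0.05. Of the 64 genes, 0 passed and 6 had an unadjusted p under 0.05, led by Myl12b, with Actb, Actc1, Tmod2, Actr8 and Dbnl. For these 6 genes the direct and the indirect value had opposite signs. Across 14975 probes the direct and indirect ratios of Wobbler over wildtype correlated at -0.02, and those of the comparisons with the modifier at 0.19 and 0.18, as a description, since probes are not replicates. A low count past the threshold therefore does not show that the loop closes.

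Dbnl lies on mouse chromosome 11. The promoter window shown here, 250 bases ending before the annotated start in RefSeq (GRCm38.p6), is chr11:5788233-5788482 on the + strand. Capitals mark the only match to the letter motifs searched, TGACG on the reverse strand, which is the core of the site bound by cAMP-responsive factors. It is printed because Dbnl is the only gene of the 64 that was called.
Dbnl: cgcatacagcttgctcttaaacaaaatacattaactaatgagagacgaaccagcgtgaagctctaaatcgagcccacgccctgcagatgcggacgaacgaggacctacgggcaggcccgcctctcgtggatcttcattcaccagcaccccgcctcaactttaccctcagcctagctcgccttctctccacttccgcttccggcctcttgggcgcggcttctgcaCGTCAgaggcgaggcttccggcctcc

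Of the genes beside Dbnl on chromosome 11 in the RefSeq gene order, the nearest 5 tested on each side were taken, 10 in all. They were looked up after the values of Dbnl had been seen. None was called. Their ratios ranged from -0.35 to 0.37 in modifier over wildtype, from -0.21 to 0.69 in modifier over Wobbler and from -0.43 to 0.61 in Wobbler over wildtype. The ratio of Dbnl was above all 10 in both comparisons with the modifier, but Dbnl had been picked for its positive calls there. In modifier over Wobbler, Urgcp, which lies next to it, had 0.69 ± 0.81 (SE) beside 0.72 for Dbnl, so these 2 genes were not separated. The other cortical adaptor, Cttn (cortactin, which stabilises filament branches), had ratios of -0.12, -0.02 and 0.06 and was not called.

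**Figure D3:**
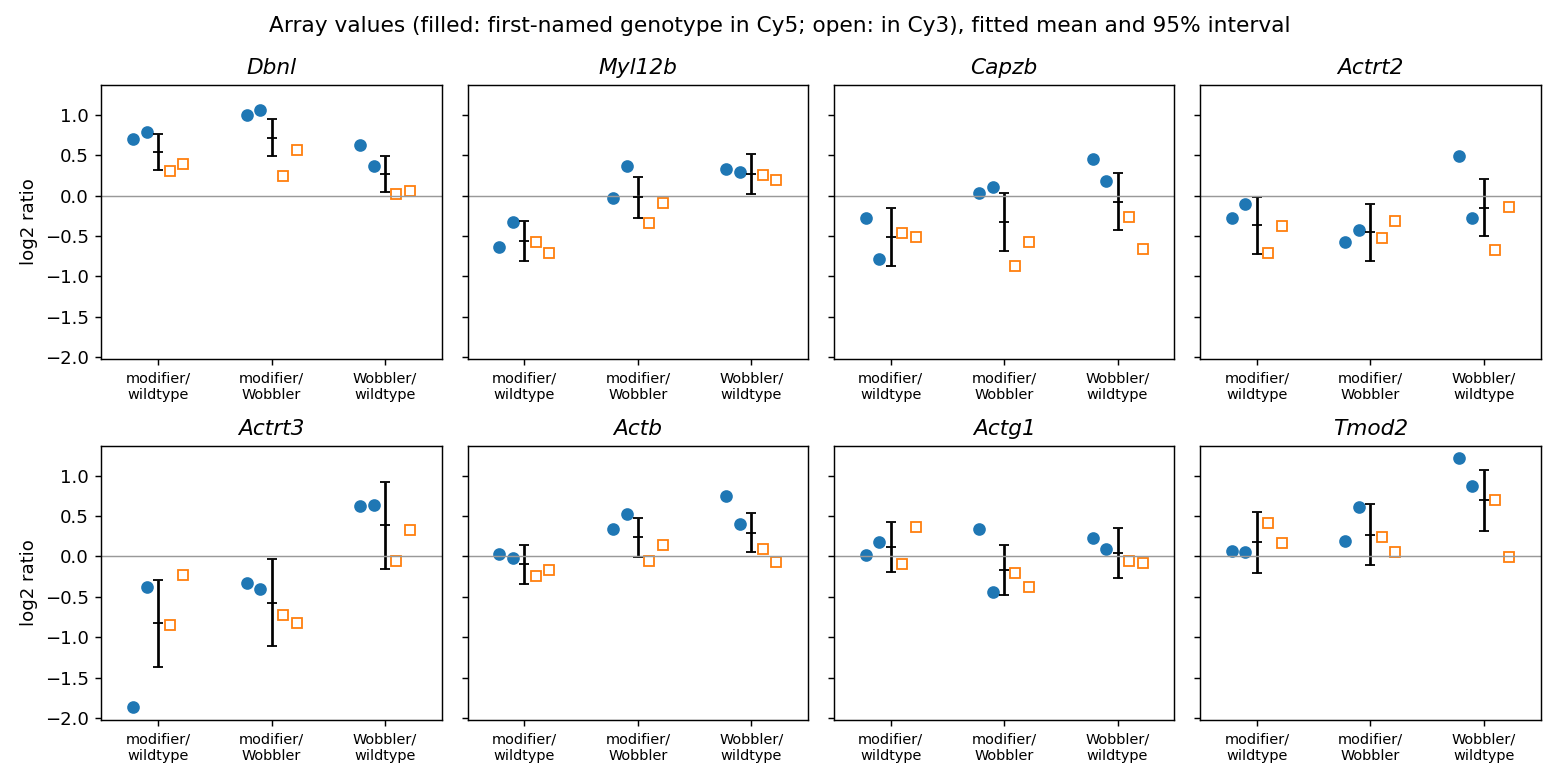
log2 ratio (y axis) of 8 genes in the 3 comparisons, with 1 point per array (filled circles, first-named genotype in Cy5; open squares, dyes exchanged) and the fitted mean with its 95% interval in black. Dbnl lies above 0 on every array, Myl12b below 0 on every array of modifier over wildtype, and the open squares often lie below the filled circles.

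The 5 actins tested were Actb and Actg1, the cytoplasmic actins of all cells, Acta2 and Actg2, the smooth muscle actins, and Actc1 of cardiac muscle. None passed the threshold in any comparison. All 5 ratios were positive in Wobbler over wildtype, from 0.05 to 0.41, where 49.2% of all features were positive. Actb gave 0.75, 0.40, 0.09 and -0.07 on the 4 arrays, with a fitted ratio of 0.30 ± 0.11 (SE, n = 4; adjusted p = 0.250). Its values were highest on replicates 1 and 2, and its mean was 0.58 in 1 dye order and 0.01 in the other. Actc1 gave 0.77, 0.52, 0.11 and 0.06 and a fitted ratio of 0.36 ± 0.13 (SE, n = 4; adjusted p = 0.226), with the same order of the dyes. The single large value among the actins was Actg2 on replicate 2, at 2.67, against -0.31, -0.28 and -0.45 on the other arrays, all below 0. Without replicate 2, 4 of the 5 actins had positive ratios.

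In the comparisons with the modifier the actins had smaller ratios of mixed sign. Actb was -0.10 ± 0.11 against wildtype and 0.24 ± 0.11 against Wobbler (SE, n = 4 each). The indirect value of Actb for Wobbler over wildtype was thus -0.33, opposite to the direct 0.30. In modifier over Wobbler the 2 probes of Actb had means of -0.03 and 0.51. Actg1 was 0.12 ± 0.14, -0.17 ± 0.14 and 0.05 ± 0.14 (SE, n = 4), and Actg1 was not called in any comparison. Its 4 probes ranged from -0.88 to 0.48 in modifier over Wobbler. Actins are much alike in their coding sequence, so probes of an actin may bind RNA of another actin. This was not tested, and ratios of single actins are uncertain.

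Actc1 and Actg1 each carry a CArG box, the site of serum response factor, in the 250 bases before their start. The box, counted on both strands, was found in 1.47% of all 32851 promoters of this length in the RefSeq table and in 9 of the 70 promoters of the genes described here, or 12.9%. The 70 promoters belong to 56 of the 67 genes, and some genes have several. The 9 genes were Actc1, Actg1, Arpc4, Myh4, Myl3, Myl6, Myl7, Myo1e and Vil1. None of the 9 was called, and their median ratios were -0.01, 0.04 and 0.05. The other motifs searched on both strands were TATAAA (12.4% of all promoters, 11.4% of the 70), TGACG (17.8% and 21.4%), TGACGTCA, which contains TGACG (1.55% and 1.43%), CCAAT (33.8% and 34.3%) and GGGCGG (32.7% and 47.1%). A match is a description of the letters, not a site in use. The pair below shows where the box lies in a muscle actin and in a cytoplasmic actin, with capitals for the CArG box, CCAAT and GGGCGG on either strand. The windows are chr2:114052876-114053125 and chr11:120348496-120348745, both on the - strand of GRCm38.p6.
Actc1: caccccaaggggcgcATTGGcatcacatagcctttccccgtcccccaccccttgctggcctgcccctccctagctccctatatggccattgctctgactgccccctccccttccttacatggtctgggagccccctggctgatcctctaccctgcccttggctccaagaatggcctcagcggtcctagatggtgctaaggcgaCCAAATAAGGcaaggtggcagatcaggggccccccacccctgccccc
Actg1: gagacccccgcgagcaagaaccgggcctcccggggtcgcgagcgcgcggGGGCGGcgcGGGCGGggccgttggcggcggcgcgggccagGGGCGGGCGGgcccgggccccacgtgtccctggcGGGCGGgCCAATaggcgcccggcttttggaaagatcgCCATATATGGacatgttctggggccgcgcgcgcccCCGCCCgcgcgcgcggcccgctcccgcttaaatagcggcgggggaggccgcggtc

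The Arp2/3 complex starts filament branches, and 6 of its genes were tested. None was called. In the comparison of Wobbler with wildtype 5 of the 6 ratios were positive with a median of 0.60, and 3 had an unadjusted p under 0.05 (15.7% of all features). The median on the single arrays was 0.19, 1.32, -0.03 and 0.10, high on replicate 2 alone. Actr3, the actin-related subunit Arp3, gave 0.20, 1.77, 0.51 and 1.08, all above 0, with a fitted ratio of 0.89 ± 0.32 (SE, n = 4; adjusted p = 0.239). Arpc2, a subunit of its core, gave 0.88, 3.00, 0.02 and -0.08, or a fitted 0.95, with its highest value on replicate 2 and both dye-exchanged arrays near 0. Arpc5l, another subunit, was likewise highest on replicate 2, at 1.73, and 2 of its 4 probes had means of 0.94 and 0.90 while the other 2 had -0.09 and -0.06. Replicate 2 is the array with the widest spread. Without it the median of the 6 genes was 0.20 and 0 had an unadjusted p under 0.05, with ratios of 0.51 for Actr3 and 0.04 for Arpc5l.

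The Arp2/3 genes had a median of -0.04 in modifier over wildtype. Arpc1a gave -0.05, -0.27, -1.39 and -0.59, negative on all 4 arrays, with a fitted ratio of -0.58 ± 0.30 (SE, n = 4; adjusted p = 0.834). Its spread between arrays was as large as the ratio. The 2 WAVE proteins, which switch the Arp2/3 complex on, had gene ratios from -0.01 to 0.13. Behind these lay probes and arrays on both sides of 0, since the 3 probes of Wasf2 had means of 0.25, -0.42 and 0.50 in Wobbler over wildtype and the median of the pair ran from -0.48 to 0.65 over single arrays.

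Actin-related proteins outside that complex fall into 3 sets. Actr1a is the filament of dynactin, the partner of the dynein motor, and its ratios were 0.04, 0.10 and 0.06. Actr5 and Actr8 belong to the nuclear chromatin remodeller INO80. Actr5 had ratios of -0.03, 0.01 and -0.20. Actr8 had ratios of 0.49, -0.25 and -0.60, but its 2 probes went opposite ways in Wobbler over wildtype, at -1.91 and 0.72, so its gene value describes neither probe.

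The third set, Actrt1, Actrt2 and Actrt3, is made in germ cells, and these proteins lie in the dense perinuclear shell of the sperm head. None passed the threshold. Actrt2 gave -0.28, -0.10, -0.71 and -0.38 in modifier over wildtype, with a fitted ratio of -0.37 ± 0.16 (SE, n = 4; adjusted p = 0.648). Over Wobbler it gave -0.57, -0.42, -0.52 and -0.31, or -0.46 ± 0.16 (SE, n = 4; adjusted p = 0.316). For Wobbler over wildtype it gave 0.49, -0.28, -0.67 and -0.13, values on both sides of 0. Actrt2 was thus negative on all 8 arrays that carry the modifier material.

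Actrt3 gave -1.87, -0.37, -0.85 and -0.23 in modifier over wildtype, with a fitted ratio of -0.83 ± 0.24 (SE, n = 4; adjusted p = 0.257). Over Wobbler it gave -0.33, -0.40, -0.73 and -0.82, or -0.57 ± 0.24 (SE, n = 4; adjusted p = 0.412). It was negative on all 8 modifier arrays as well, with the same limits as for Actrt2. The value of -1.87 includes a second probe that gave only 2 values in this comparison, 1 in modifier over Wobbler and none in Wobbler over wildtype. The probe measured on every array had means of -0.42, -0.53 and 0.39. Actrt1 had ratios of -0.23, 0.00 and 0.17 and mixed signs in each comparison.

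The promoter windows of the pair with negative ratios on all modifier arrays are chr4:154667868-154668117 and chr3:30599871-30600120, both on the - strand of GRCm38.p6. Actrt2 has no match to any of the motifs searched, and Actrt3 has TGACG, in capitals. They are printed so that the 2 germ cell genes can be set beside each other.
Actrt2: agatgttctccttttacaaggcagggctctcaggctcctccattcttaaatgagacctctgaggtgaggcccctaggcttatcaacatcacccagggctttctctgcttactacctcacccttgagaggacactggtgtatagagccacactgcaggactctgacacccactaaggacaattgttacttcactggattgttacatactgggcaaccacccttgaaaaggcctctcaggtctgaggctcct
Actrt3: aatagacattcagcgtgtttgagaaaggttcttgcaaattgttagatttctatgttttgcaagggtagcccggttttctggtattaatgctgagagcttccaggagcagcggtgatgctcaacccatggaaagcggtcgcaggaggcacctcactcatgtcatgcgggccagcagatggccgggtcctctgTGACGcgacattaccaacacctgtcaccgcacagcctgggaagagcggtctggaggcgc

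Other actin-like genes of germ cells were listed as well, and 7 of the 13 listed outside the genes described here were tested. They are Actl7a, Actl7b, Actl9, Actl11, Ccin, Fscn3 and Tesk1, which code for actin-like proteins, the head protein calicin, a fascin that bundles filaments and a kinase that acts on cofilin. None was called. All 7 ratios were negative in modifier over wildtype, with a median of -0.48, and 5 were negative on every array. Over all 14729 features 6995 were negative there, and 10.4% were negative on every array. The medians were -0.22 in modifier over Wobbler and -0.09 in Wobbler over wildtype. Actl7a gave -0.32, -0.37, -0.86 and -0.78 in modifier over wildtype, with a fitted ratio of -0.58 ± 0.15 (SE, n = 4; adjusted p = 0.178).

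Markers of late spermatids were counted beside these genes. Of 23 listed, 19 were tested, and 8 were called lower in modifier over wildtype (0.699% of all features), 5 lower in modifier over Wobbler (0.299%) and 0 in Wobbler over wildtype. Their median ratios were -0.76, -0.59 and -0.11. Over the 4 arrays the list median ran from -0.93 to -0.77 in modifier over wildtype and from -0.62 to -0.44 in modifier over Wobbler. The part of spermatid number in the Actrt ratios was not tested, and in RNA from whole testis fewer cells of a type and less RNA per cell cannot be told apart.

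**Figure D4:**
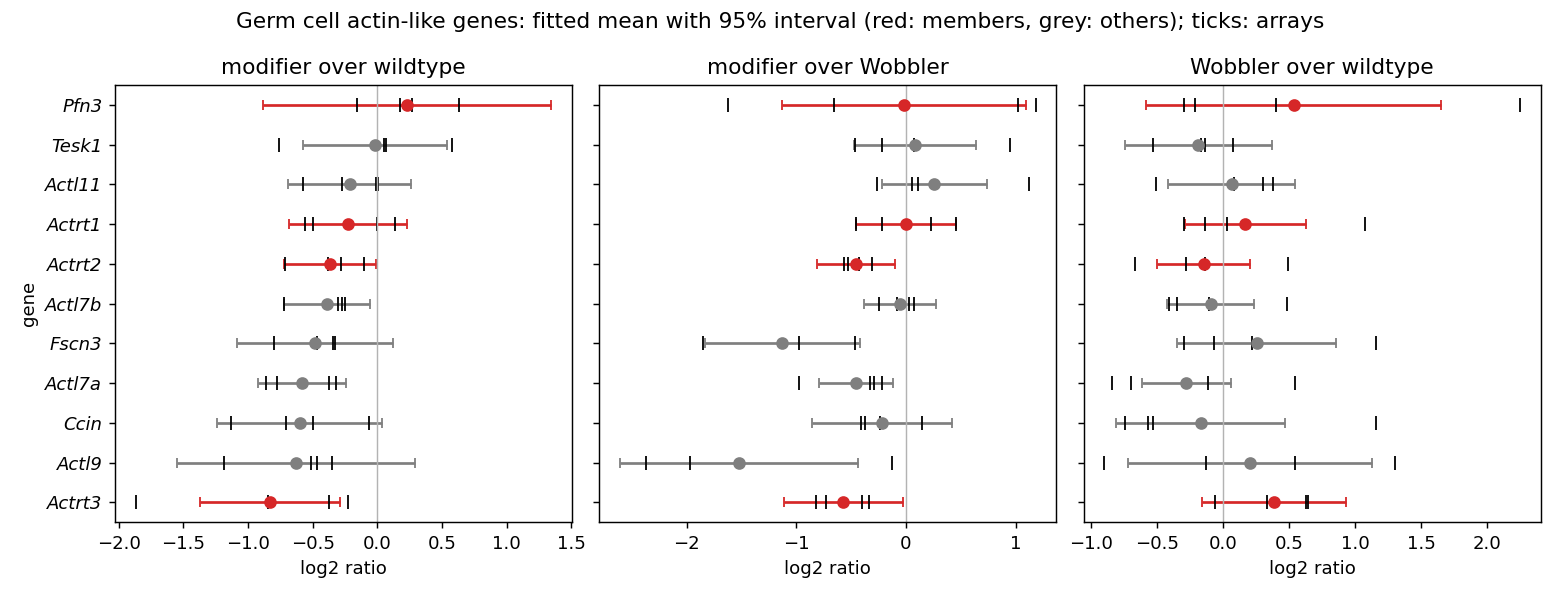
Fitted log2 ratio (x axis) with its 95% interval for germ cell actin-like genes (rows) in the 3 comparisons, red for Pfn3 and Actrt genes described here and grey for others, with a tick per array. In modifier over wildtype 10 of the 11 fitted ratios lie below 0, in modifier over Wobbler 8 of 11 and in Wobbler over wildtype 5 of 11. Over all 14729 features 6995, 5650 and 7485 lie below 0.

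Capping protein and gelsolins close or cut filaments. Capzb, the beta subunit of capping protein, gave -0.27, -0.78, -0.46 and -0.51 in modifier over wildtype, with a fitted ratio of -0.51 ± 0.16 (SE, n = 4; adjusted p = 0.315). All 4 arrays were below 0, and the mean was nearly equal in both dye orders, -0.53 and -0.49. Over Wobbler it was -0.32, but 0.07 in 1 dye order and -0.72 in the other, and in Wobbler over wildtype -0.07. Gsn, gelsolin, had ratios of 0.18, 0.24 and 0.14 with an SE of 0.17 each. Vil1, the villin of brush borders, was positive on all 4 arrays of modifier over Wobbler (0.21, 0.17, 0.11 and 0.66), yet its spread over the 12 arrays was wide, since replicate 2 of Wobbler over wildtype gave -4.89.

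Cofilin and profilins turn filaments over. Cfl1, the cofilin of non-muscle cells, had ratios of 0.29, -0.33 and -0.15 with an SE of 0.27 each. Pfn1, the general profilin, had ratios of -0.06, 0.19 and 0.03. Pfn3, a profilin of testis, had 0.23, -0.02 and 0.54 with an SE of 0.50, so it could not be placed on either side of 0. None of these was called.

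Tropomyosins run along filaments, and tropomodulins cap their slow-growing end. The 4 tropomyosins had ratios from -0.36 to 0.35 over the 3 comparisons, and none was called. Tpm2, a tropomyosin of muscle, was negative on all 4 arrays of modifier over wildtype, from -0.95 to -0.03, but 1 of its 3 probes gave -1.53 and the others 0.06 and 0.08. Among the tropomodulins Tmod2, known from neurons, had the smallest p of all 64 genes in Wobbler over wildtype. Its arrays gave 1.22, 0.87, 0.70 and -0.001, with a fitted ratio of 0.70 ± 0.17 (SE, n = 4; adjusted p = 0.125). It was also positive on every array of modifier over wildtype (0.18 ± 0.17) and modifier over Wobbler (0.27 ± 0.17), without passing the threshold. Tmod3, the widely expressed form, was positive on all 4 arrays of Wobbler over wildtype, from 0.01 to 0.55, with an adjusted p of 0.366.

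Myosins of class 2 pull on filaments through pairs of heavy chains that carry light chains. None of the 8 heavy chains and 9 light chains tested was called in any comparison. Myl12b, a regulatory light chain of non-muscle and smooth muscle myosin, came closest. Relative to wildtype, the modifier gave -0.63, -0.32, -0.57 and -0.71, with a fitted ratio of -0.56 ± 0.11 (SE, n = 4; adjusted p = 0.0669). All 4 arrays were below 0 in both dye orders, with means of -0.48 and -0.64. Its values in Wobbler over wildtype were 0.34, 0.29, 0.26 and 0.20, all above 0, or 0.27 ± 0.11 (SE, n = 4; adjusted p = 0.294). Between modifier and Wobbler it was -0.02 ± 0.11.

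The direct and indirect values of Myl12b had opposite signs, but their difference did not pass the threshold. The indirect value for Wobbler over wildtype was -0.54, against 0.27 measured directly, a difference of 0.81 ± 0.20 (SE; adjusted p = 0.458). Under alternative settings Myl12b passed in modifier over wildtype when arrays were scaled to equal spread (-0.76, adjusted p = 0.0104) or weighted (-0.56, adjusted p = 0.00296), and Capzb when they were weighted (-0.56, adjusted p = 0.0379). Myl12a, a near copy of Myl12b, had ratios of -0.02, 0.18 and 0.43, with 1 of its 3 probes at 0.98 and another at -0.44 in Wobbler over wildtype. Probes of the 2 copies may bind each other's RNA, which was not tested, so the values of each are uncertain.

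Among the heavy chains, Myh4 of fast muscle gave 0.50, 0.63, 0.64 and 0.20 in modifier over Wobbler, with a fitted ratio of 0.49 ± 0.17 (SE, n = 4; adjusted p = 0.299). Myh1, also of fast muscle, was positive on all 4 arrays of modifier over wildtype, from 0.02 to 0.46. Its 2 probes had means of 0.61 and 0.05 there, so most of this ratio came from 1 probe. Myh14, a non-muscle heavy chain, was negative on all 4 arrays of Wobbler over wildtype, from -0.73 to -0.09, with an adjusted p of 0.434. The widest spread belonged to Myh9, the main non-muscle heavy chain, whose arrays ran from -5.28 to 2.502 in modifier over Wobbler. Its SE of 1.26 there left its ratio undetermined.

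Muscle markers were counted to see how far muscle genes moved together. Of the smooth muscle list, which marks the cells around tubules and in vessels, 5 members and 6 other genes were tested, with 0 called. Its medians over all 11 were -0.06, -0.08 and -0.18. Of the striated muscle list 12 members and 10 other genes were tested, with 0 called and medians of -0.05, 0.10 and -0.07. These medians stayed within 0.18 of 0, and the range over arrays of the smooth muscle median was -0.28 to 0.20.

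Unconventional myosins carry membranes and vesicles, and 10 were tested with 0 called. Myo1g, known from blood cells, gave -0.19, 2.57, 0.99 and 0.58 in modifier over Wobbler, and its fitted ratio of 0.99 ± 0.34 (SE, n = 4; adjusted p = 0.309) was 0.43 without replicate 2. Myo1f, another myosin of blood cells, was negative on all 4 arrays of Wobbler over wildtype (-0.77, -0.55, -0.21 and -0.08; fitted -0.40, adjusted p = 0.333), as was Myo7b, a myosin of brush borders, from -0.86 to -0.02. Myo3b, known from sensory cells, was negative on all 4 arrays of modifier over Wobbler, from -0.89 to -0.13. Myo9b was positive there, from 0.08 to 0.42. Flnc, the muscle filamin, and Actn4, the non-muscle alpha-actinin, had ratios within 1 SE of 0 in modifier over wildtype.

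Genes that control actin were taken from lists of kinases and phosphatases, nucleators, monomer binding and turnover proteins, bundlers and membrane linkers. In these lists 14, 18, 15, 12 and 22 genes were tested. None was called in the comparisons with the modifier. Between Wobbler and wildtype 1 was called, the adhesion protein Trip6 of the membrane linkers, which gave -1.54, -1.63, -1.37 and -2.06, or -1.65 ± 0.16 (SE, n = 4; adjusted p = 0.00199). The arrays of Trip6 did not overlap 0, and 0.183% of all features were called lower in that comparison. The call of Trip6 also depended on settings. With Wobbler over wildtype fitted alone 0 features were called, and in a loop model likewise 0, so the call was lost in both. In the other comparisons Trip6 had ratios of -0.07 and -0.10, so its indirect value for Wobbler over wildtype was 0.03. The direct value differed from it by -1.68 ± 0.28 (SE; adjusted p = 0.211). The 5 list medians lay between -0.02 and 0.09, between 0.03 and 0.09 and between -0.08 and 0.06.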

How the data were processed

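Testis RNA of 3 genotypes was compared on 12 two-colour arrays. The values are log2 ratios, 1 for each spot of each array, as deposited by the authors; how the arrays were scanned, corrected for background and normalized is not given in the sources used here. On each array 1 repeated value above 15, on 22 to 165 spots, was treated as missing. Probes were named from the platform annotation (14030 of 20355 with 1 symbol, 5 with several, 6320 with none), and probes of 1 symbol were averaged per array. Dye-exchanged arrays were multiplied by -1. limma 3.58.1 (R 4.3.3) fitted 1 mean per comparison and 1 dye term over all 12 arrays, with Benjamini-Hochberg adjustment over 14729 features. The fit was tested on simulated data. The genes and lists were chosen with earlier results of these data known. Genes were named if called, if among the smallest p with 1 sign on every array, if smallest in their role, or if their probes differed by over 1. Actb and Actg1 were always named. Other genes were chosen after their values were seen. The result of 1 further gene list is not reported here. Alternative settings left out the dye term, scaled, centred, weighted or left out arrays, or used another filter, model or turning of arrays.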

Additional observations from a re-analysis of the deposited data

Results flagged for a closer look

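Among 105 sets of 4 array values examined, for named genes and the median of all genes described here, 7 had 1 array far from the other 3. Chance gives about 1 in 20 such sets. Actn4 gave 0.515 on replicate 1 of modifier over wildtype, while the other arrays lay between -0.253 and -0.199. Myh1 gave 0.023 on replicate 1, against 0.407 to 0.458 on the others. Myo9b gave -0.344 on replicate 3, against 0.215 to 0.305. In modifier over Wobbler, Actr8 gave -1.455 on replicate 3, against 0.028 to 0.303. In Wobbler over wildtype, Arpc1a gave -1.717 on replicate 4, against 0.176 to 0.275. Flnc gave 4.784 on replicate 2, where the others lay between -0.656 and 0.141. Myl1, a light chain of fast muscle, gave 2.261 on replicate 2, against -0.252 to 0.069. These last 2 values come from the array with 13.9% of its values above 2.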

How the results depend on the processing

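The number of features called moved with most settings. In modifier over wildtype it was 108 as reported (5 higher, 103 lower), 483 (72 higher, 411 lower) when every array had the same spread, 46 with no dye term, 709 with array weights, 224 in a loop model, 165 with probes not averaged, 4 with the comparison fitted alone, 0 with dye-exchanged arrays not turned and 19 to 163 with 1 array left out. In modifier over Wobbler it was 61, with 7 for no dye term, 207 in the loop model, 110 for probes not averaged, 0 fitted alone, 0 not turned and 6 to 137 with 1 array left out. In Wobbler over wildtype it was 45, with 23 scaled, 24 for no dye term, 22 weighted, 0 in the loop model, 87 for probes not averaged, 0 fitted alone, 0 not turned and 18 to 54 with 1 array left out. Of the genes described here, 2 passed in modifier over wildtype with scaling and 3 with weights, and 0 with no dye term, no filter, no turning or a fit alone. In modifier over Wobbler 0 passed with no dye term, no turning or a fit alone. With 1 array left out the count was 0 to 1 in both. In Wobbler over wildtype it was 0 throughout. The adjusted p of Dbnl ranged from 0.00126 to 0.988 in modifier over wildtype and from 0.0131 to 0.845 in modifier over Wobbler. The cause was not tested. The median of the genes described here moved by less than the standard deviation of its 4 array medians in every setting. Those array medians differ by dye order, so this limit is wide and was met even with dye-exchanged arrays not turned. It therefore does not show that the median is stable. With arrays centred the median went from 0.04 to -0.01 in modifier over Wobbler. In the loop model it went from -0.02 to 0.04 in modifier over wildtype. No called value changed sign.

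Replicate numbers did not pair the arrays: over 12 pairs with the same number the correlation of deviations was -0.03 to 0.08. With the number as a replicate block 58, 24 and 22 features were called in modifier over wildtype, modifier over Wobbler and Wobbler over wildtype, and 0 of the genes described here (adjusted p of Dbnl 0.130 and 0.0689). Leaving out spots at ratios of small whole numbers, an alternative chosen after seeing the data, left the calls of Dbnl in place. No spot of Dbnl lay at such a ratio, so its own values could not change and the kept calls add no support. Without intensities, no limit by signal over background could be set.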

Other observations

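The 3 genes not tested gave scattered values. Actn2, the alpha-actinin of the muscle Z disc, gave -0.50, -1.49 and 0.28 on replicates 2 to 4 of modifier over wildtype, then -1.09, -0.54 and -1.89 on those arrays of modifier over Wobbler, and -0.32 and 2.23 on replicates 2 and 4 of Wobbler over wildtype. Its 3 values in modifier over Wobbler were all below 0. Actn3, the form of fast muscle, gave -0.56, 1.26 and 1.37 in modifier over wildtype, 1.03 in modifier over Wobbler, and -2.38 and -0.40 in Wobbler over wildtype. Myh3, the embryonic muscle heavy chain, gave -1.24 and 0.42 against wildtype, 0.48, -2.73 and -2.78 against Wobbler, and -0.13, 0.32 and -0.07 in Wobbler over wildtype. With these spreads none of the 3 genes could be placed on either side of 0 in all comparisons.

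Leydig cell markers, of which 8 were tested, had median ratios of -0.70 (2 called lower) and -0.56 (1 called lower) in the comparisons of the modifier with wildtype and with Wobbler, and 0.03 (0 called) between Wobbler and wildtype. Over all features the medians were 0.01, 0.08 and -0.01, and 0.699% and 0.299% were called lower in the comparisons with the modifier. Sertoli cell markers, of which 11 were tested, had medians of -0.12, -0.02 and 0.01, with 0 called.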
